A study of Mus musculus with 6 samples.

Results

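The 7 mouse genes described here are the Ena/VASP family, Enah, Vasp and Evl, and the tensins, Tns1, Tns2, Tns3 and Tns4, out of 22535 gene rows in the deposited RNA-seq table. They were selected on measured values in part: Enah and Tns1 were picked because both were far lower in sgNDUFS4 than in sgControl libraries, and the other 5 genes were added as members of the same protein families, to see whether paralogs compensate. All 7 symbols had a row in the table. The levels of Enah and Tns1 are therefore given as a description, without a test, and tests are given for the paralogs.

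The libraries came from B16-BL6, an invasive derivative of B16 mouse melanoma cells, grown under standard culture conditions. The sgNDUFS4 group (n = 3 libraries) carried a guide RNA against Ndufs4, a gene for an accessory subunit of mitochondrial complex I, the NADH dehydrogenase of the respiratory chain, and the sgControl group (n = 3 libraries) carried a control guide. The study compared them to find transcriptional changes behind the immunogenicity of the Ndufs4-deficient cells. The labels do not say whether each group is a clone or a pool, nor whether the libraries of a group came from separate cultures, so that guide effects and differences between cell populations cannot be told apart. The p-values set the difference between groups against how far these libraries vary within their group, and that variation may be technical.

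Polyadenylated RNA was read in paired-end mode without strand information, with a depth per library of 20090607 to 25947374 reads in genes. Values are CPM, the reads of a gene per 1000000 reads assigned to genes in its library. Ndufs4 was at 14.99, 15.98 and 16.84 CPM in sgNDUFS4 libraries and at 54.3, 55.0 and 52.4 CPM in sgControl libraries, so the targeted mRNA was lower in every library that carried its guide. All 6 listed melanocyte markers were expressed, with sums of 14505 to 15529 CPM in sgNDUFS4 and 15377 to 15893 CPM in sgControl libraries, and Tyrp1, a melanosomal enzyme, was the highest. The 4 endothelial markers were at 0 in every library, as were the leukocyte marker Cd3e and the fibroblast markers Dcn and Lum. The 5 fibroblast markers, led by the collagen gene Col1a2, summed to 41.4 to 46.1 CPM in sgNDUFS4 and 41.8 to 44.1 CPM in sgControl libraries. The 4 leukocyte markers in the table summed to 1.81 to 5.00 CPM in sgNDUFS4 and 3.23 to 6.34 CPM in sgControl libraries. The 4 epithelial markers summed to 0.424 to 1.25 CPM in sgNDUFS4 and 1.35 to 2.33 CPM in sgControl libraries. The chi-square per gene between 2 libraries was 3.55 to 5.27 within groups, more than counting noise gives, and 41.9 to 50.1 between groups, so no library was a copy of another.

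Ena/VASP proteins bind growing actin filament ends, recruit profilin-bound actin, and keep filaments elongating in lamellipodia, filopodia and at focal adhesions. Their shared EVH1 domain docks on proline-rich partners such as zyxin and lamellipodin. Tensins sit at focal and fibrillar adhesions, where a phosphotyrosine-binding domain contacts integrin beta tails and an SH2 domain binds tyrosine-phosphorylated proteins. Tensin 4 is a short member of the family.

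Enah, which encodes Mena, an Ena/VASP protein known for roles in axon growth and tumour cell invasion, was not detected in sgNDUFS4 cells. It had 0 CPM in all 3 sgNDUFS4 libraries, against 38.1, 35.5 and 32.1 CPM in the sgControl libraries. These levels rest on 0 reads in sgNDUFS4 and on 766, 839 and 715 reads in sgControl. Every sgControl library was therefore well above the floor of 3 reads, which is between 0.116 and 0.149 CPM in a library and covers counting error only, and no sgNDUFS4 library reached it. Against a floor of 3 reads per sgNDUFS4 library, Enah was at least 295.8-fold lower in sgNDUFS4.

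Tns1, the founding tensin, was also far lower but was still detected. It was at 0.852, 0.502 and 0.617 CPM in sgNDUFS4 libraries, against 39.0, 42.6 and 39.9 CPM in sgControl libraries. In reads these were 22, 12 and 16 for sgNDUFS4 and 783, 1007 and 889 for sgControl. All 3 sgNDUFS4 libraries were above the floor of 3 reads, unlike for Enah, and none came near the sgControl range. The means were 0.657 ± 0.179 CPM in sgNDUFS4 and 40.5 ± 1.87 CPM in sgControl (SD, n = 3 each), so Tns1 was 61.6-fold lower in sgNDUFS4. In bulk RNA, fewer expressing cells and less RNA per cell cannot be told apart.

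Enah (ENSMUSG00000022995.16, chromosome 1, 181896384 to 182019990, minus strand, GRCm38) and Tns1 (ENSMUSG00000055322.15, chromosome 1, 73910231 to 74124449, minus strand) lie on the same chromosome, far from each other. The tested genes beside them were present in all libraries. On the lower-coordinate side of Enah, Lbr, the lamin B receptor, fell to 91.9 ± 5.84 CPM in sgNDUFS4, against 117.8 ± 2.67 CPM in sgControl (SD, n = 3 each, limma adjusted p = 1.0e-06), and Wdr26 had 115.3 ± 4.36 CPM in sgNDUFS4 and 119.9 ± 1.33 CPM in sgControl (limma adjusted p = 0.29). On the other side, Srp9, a signal recognition particle subunit, had 49.4 ± 2.14 CPM in sgNDUFS4 and 52.7 ± 0.645 CPM in sgControl (limma adjusted p = 0.21), while the dihydroceramide desaturase gene Degs1 fell to 95.3 ± 1.998 CPM in sgNDUFS4, against 119.2 ± 5.46 CPM in sgControl (limma adjusted p = 2.5e-06). Beside Tns1, the log2 fold changes of Smarcal1, Rpl37a and Arpc2 were 0.03, -0.06 and 0.03 (limma adjusted p of 0.70, 0.17 and 0.53), and Aamp fell by 0.19 on the log2 scale (limma adjusted p = 8.4e-05). Under TMM scaling Wdr26, Srp9 and Rpl37a passed the threshold as lower. No neighbour of either gene shared the size of its change: the 50 nearest tested genes, 25 on each side, had a median log2 fold change of -0.05 around Enah and of -0.06 around Tns1.

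The starts of Enah and Tns1 are shown with that of Tns3, a tensin with no detectable difference between groups. All 3 windows are rich in CG dinucleotides, and Enah and Tns1 were far lower in sgNDUFS4 whereas Tns3 was not. Each window runs from 250 bases before to 50 bases after the gene's start in RefSeq (GRCm38.p6), reads 5′ to 3′ on the gene's strand, and has CG dinucleotides in capitals. They lie at chr1:182019931-182020230, chr1:74124499-74124798 and chr11:8664486-8664785, all on the minus strand.
Enah: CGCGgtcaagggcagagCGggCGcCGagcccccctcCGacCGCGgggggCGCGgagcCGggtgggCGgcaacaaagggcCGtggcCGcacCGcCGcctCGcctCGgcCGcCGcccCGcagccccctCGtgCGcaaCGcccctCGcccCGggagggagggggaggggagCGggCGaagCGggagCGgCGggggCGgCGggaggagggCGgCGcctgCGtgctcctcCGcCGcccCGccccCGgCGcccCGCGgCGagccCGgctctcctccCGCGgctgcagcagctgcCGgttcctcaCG
Tns1: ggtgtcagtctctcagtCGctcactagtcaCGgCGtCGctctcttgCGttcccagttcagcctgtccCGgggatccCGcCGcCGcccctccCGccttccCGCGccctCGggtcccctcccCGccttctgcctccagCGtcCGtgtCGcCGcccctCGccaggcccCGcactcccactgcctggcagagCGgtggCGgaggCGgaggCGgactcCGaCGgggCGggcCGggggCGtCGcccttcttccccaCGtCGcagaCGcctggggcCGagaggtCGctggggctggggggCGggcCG
Tns3: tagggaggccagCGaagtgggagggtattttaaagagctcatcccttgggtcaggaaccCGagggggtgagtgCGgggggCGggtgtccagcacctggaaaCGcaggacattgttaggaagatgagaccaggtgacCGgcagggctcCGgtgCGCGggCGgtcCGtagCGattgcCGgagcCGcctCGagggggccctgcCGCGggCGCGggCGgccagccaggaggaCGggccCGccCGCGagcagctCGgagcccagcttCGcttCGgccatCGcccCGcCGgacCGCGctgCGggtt

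The Enah window held 49 CG dinucleotides, more than 99.0% of the 32851 windows in the RefSeq table, whose median is 7. Those of Tns1 and Tns3 held 37 and 33, more than 94.4% and 91.4% of windows. The GC box GGGCGG, searched on both strands with overlaps counted, occurred 6 times in the Enah window, 4 times in that of Tns1 and 4 times in that of Tns3, and 35.7% of all windows hold at least 1. Among the other members, Evl had 26 CG dinucleotides and 3 GC boxes at its first start and 4 CG dinucleotides and none at a start inside the gene, Vasp had 13 CG dinucleotides and no GC box, and Tns2 had 2 and no GC box. The RefSeq start of Tns2 lies 2521 bases inside the gene as GENCODE draws it, so its outermost start was not examined. The RefSeq starts of Tns1 and Vasp lie 99 and 37 bases upstream of the genes as GENCODE draws them, and the Tns1 window lies wholly outside its gene. Tns4 had no window. The TATA box TATAAA, the E-box CACGTG and the antioxidant response element TGACNNNGC, which occur in 13.6%, 7.15% and 12.4% of all windows, were in none of the members' windows. A match is a description of the letters only.

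No difference between the groups was detected for either Ena/VASP paralog. Vasp (chromosome 7, 19256929 to 19271817), which encodes the vasodilator-stimulated phosphoprotein, a substrate of cyclic nucleotide-dependent kinases, had 91.5, 91.7 and 97.9 CPM in sgNDUFS4 libraries, against 94.3, 88.9 and 90.0 CPM in sgControl libraries. The groups overlapped. Its log2 fold change, on the scale of log2(CPM + 0.5) as for all fold changes of this kind here, was 0.04 (95% interval -0.06 to 0.14, limma adjusted p = 0.50). The interval reaches from 0.960-fold to 1.10-fold.

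Evl (chromosome 12, 108554720 to 108688516), the Ena/VASP-like gene, had 69.8, 67.0 and 64.6 CPM in sgNDUFS4 libraries, against 62.9, 64.7 and 74.1 CPM in sgControl libraries. All sgNDUFS4 values lay inside the sgControl range. The fold change was 1.00 (95% interval 0.918 to 1.09, limma adjusted p = 0.99). Evl was the only member with exon bases shared with another annotated gene, 278 bases with Degs2 on the opposite strand, and Degs2 was at 0 in both groups.

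Among the tensins, Tns2 was higher and Tns3 was not distinguishable between groups. Tns2 (chromosome 15, 102100413 to 102116401) encodes tensin 2, which unlike the other tensins has an additional N-terminal C1 domain. It had 107.3, 104.6 and 109.9 CPM in sgNDUFS4 libraries, against 89.5, 87.8 and 80.2 CPM in sgControl libraries. The groups did not overlap, and the lowest sgNDUFS4 library was above the highest sgControl library. Tns2 rose 1.25-fold (95% interval 1.16 to 1.34), which is 0.32 ± 0.0497 (SE) on the log2 scale (limma adjusted p = 6.1e-06). The 50 tested genes nearest to Tns2 had a median log2 fold change of -0.13. Over 15 alternative fits the log2 fold change of Tns2 lay between 0.26 and 0.35, with adjusted p-values between 2.7e-06 and 0.0064.

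Tns3 (chromosome 11, 8431652 to 8664535), the tensin with the most CPM in this line, had 169.0, 156.7 and 165.9 CPM in sgNDUFS4 libraries, against 167.7, 167.2 and 151.1 CPM in sgControl libraries. The groups overlapped, and the log2 fold change was 0.02 (95% interval -0.07 to 0.11, limma adjusted p = 0.77). Tns4 (chromosome 11, 99065678 to 99089306), the short tensin also called Cten, had 1 read in sgNDUFS4 replicate 3 and no read in the other 2 sgNDUFS4 and all 3 sgControl libraries. It stayed under the floor of 3 reads in every library and below the minimum of 1 mean CPM for testing.

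**Figure D1:**
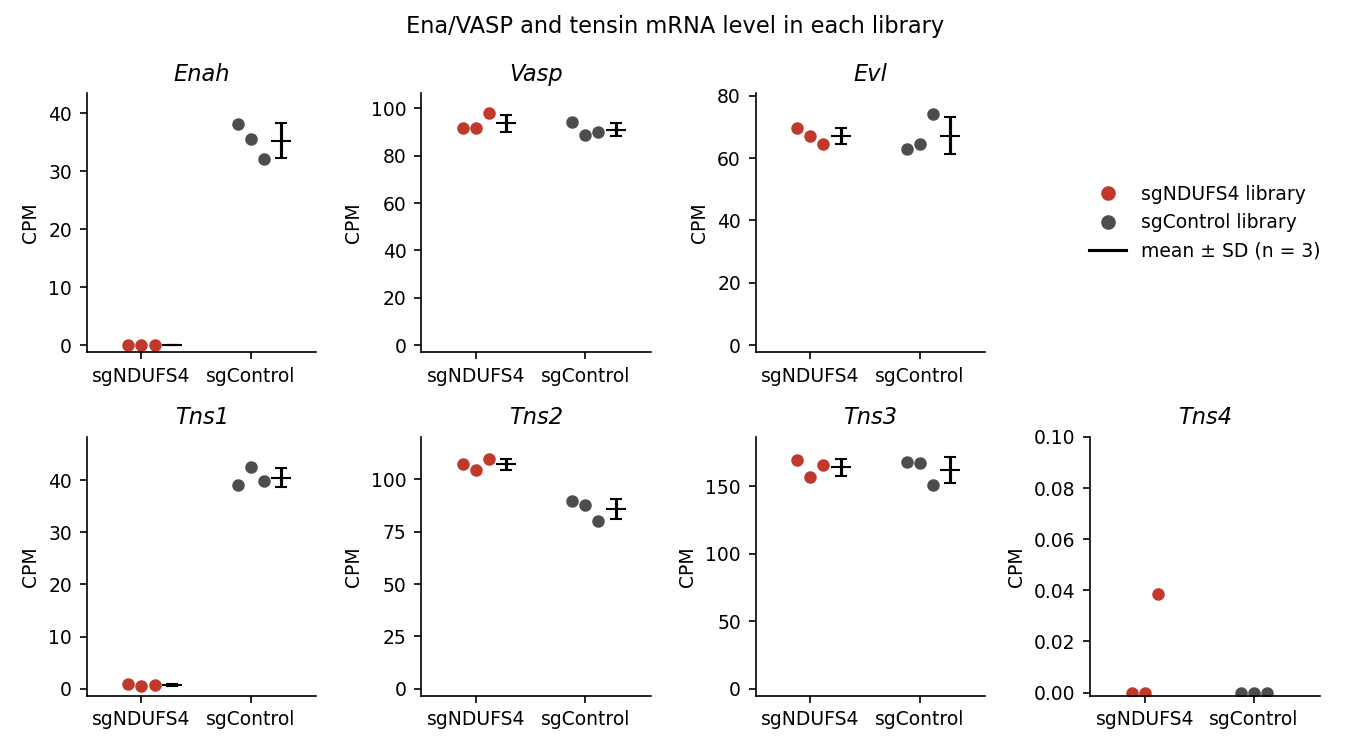
Level of each member in CPM (vertical axes, each starting near 0 with its own scale) in the 3 sgNDUFS4 and 3 sgControl libraries; points are libraries and bars are mean ± SD, left out for Tns4, which had 1 read in all. Enah is at 0 and Tns1 under 1 CPM in sgNDUFS4, Tns2 is higher in sgNDUFS4 without overlap, and Vasp, Evl and Tns3 overlap between groups.

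Of the 4 paralogs that could be tested, 1 rose, 0 fell and 3 did not pass. Over all 11063 genes tested, 31.8% were called higher and 20.3% lower in sgNDUFS4, 52.0% in all, so 1 call among 4 is no more than the background. The groups did not overlap for 1 of these 4 genes, against 57.2% of all genes tested. Enah and Tns1 reached the minimum of 1 mean CPM through their sgControl levels alone and are left out of these counts. Under TMM scaling, which equalizes the bulk of genes between libraries and gave 49.1% of calls as higher in place of 61.1%, the log2 fold changes of Vasp, Evl and Tns3 were -0.02, -0.06 and -0.04 and Tns2 was at 0.26 (limma adjusted p = 8.1e-05). The sign of the 3 small differences thus depends on the scaling, while that of Tns2 does not.

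**Figure D2:**
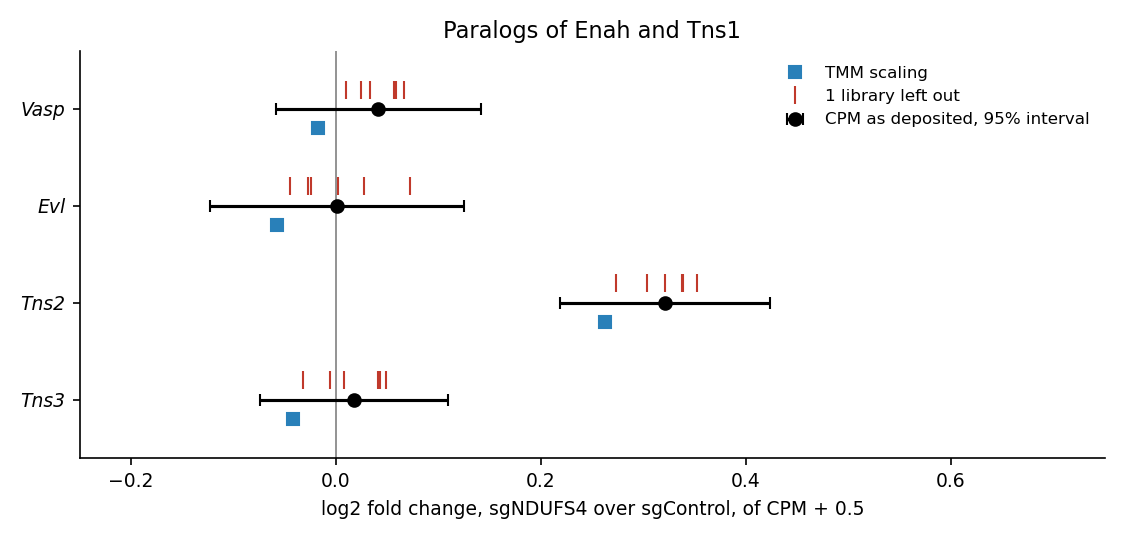
Log2 fold change of CPM + 0.5 in sgNDUFS4 over sgControl (horizontal axis) for the tested paralogs: black circles with 95% intervals use CPM as deposited, blue squares TMM scaling, and red ticks each fit with 1 library left out. Tns2 lies between 0.26 and 0.35 in the alternatives shown, and the intervals of Vasp, Evl and Tns3 include 0.

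To set the genes of a family side by side, CPM was divided by the length of each gene's merged exons in kilobases. On this scale sgNDUFS4 libraries had a mean of 35.8 ± 1.39 CPM per kb for Vasp, 22.8 ± 0.873 for Evl and 0 for Enah, and sgControl libraries had 34.8 ± 1.09 for Vasp, 22.9 ± 2.05 for Evl and 1.64 ± 0.141 for Enah (SD, n = 3 each). Enah, whose annotated exons sum to 21452 bases against 2617 for Vasp and 2940 for Evl, thus made up 3.00%, 2.87% and 2.45% of the summed Ena/VASP level in the sgControl libraries, or 4.54%, 4.33% and 3.69% with the longest transcript as length. The sum was 58.7, 57.8 and 59.4 CPM per kb in sgNDUFS4 libraries, against 59.2, 57.6 and 61.1 CPM per kb in sgControl libraries, and these ranges overlapped. Vasp and Evl together would have had to be 2.85% higher to equal the level lost with Enah, or 4.36% higher if the longest transcript is taken as the length. Both lie inside the intervals of Vasp and Evl, so neither such a rise nor its absence was detectable with these libraries. Enah has 16 annotated transcripts, and which of them were expressed was not examined. If a shorter Enah transcript was expressed, the level lost would be larger than either length gives.

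In the tensin family, sgNDUFS4 libraries had means of 19.7 ± 0.484 CPM per kb for Tns2, 14.7 ± 0.573 for Tns3, 0.0410 ± 0.0112 for Tns1 and 0.0025 for Tns4, and sgControl libraries had 15.7 ± 0.910 for Tns2, 14.5 ± 0.846 for Tns3, 2.53 ± 0.117 for Tns1 and 0 for Tns4 (SD, n = 3 each). Tns1 was 0.153%, 0.0943% and 0.110% of the summed tensin level in sgNDUFS4 libraries, against 7.19%, 7.89% and 8.11% in sgControl libraries. Tns2 was 56.5%, 57.7% and 57.5% of it in sgNDUFS4 libraries, against 48.5%, 47.8% and 47.9% in sgControl libraries. The mean of Tns1 was 2.49 CPM per kb lower and that of the other 3 tensins summed was 4.10 CPM per kb higher in sgNDUFS4 than in sgControl. The other 3 summed to 113.5% of their sgControl mean (109.0% under TMM scaling), where a rise of 8.23% would have equalled the loss of Tns1. With the longest transcript as length they summed to 112.0%, where a rise of 10.1% would have equalled it. TMM scaling was not combined with this length. Each alone narrowed the margin of the rise over the loss, so under both the rise may fall short of it. The whole family summed to 106.3%, 101.4% and 106.9% of the sgControl mean in sgNDUFS4 libraries, against 103.3%, 102.9% and 93.8% in sgControl libraries, and these ranges overlapped. The mean sum was 104.9% of that in sgControl with CPM as deposited, 100.7% under TMM scaling and 101.7% with the longest transcript as length. Tns1 has 22 annotated transcripts, and expression of a shorter one would likewise make its loss larger than either length gives. A sum of mRNA levels says nothing of how the proteins share out their tasks.

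Per kb of merged exons, the mean levels of the 4 higher genes had the same order in both groups, Vasp above Evl above Tns2 above Tns3. On this scale none of these neighbours overlapped in sgNDUFS4 libraries, with 35.0 to 37.4 CPM per kb for Vasp, 21.98 to 23.7 for Evl, 19.2 to 20.2 for Tns2 and 14.0 to 15.1 for Tns3. In sgControl libraries Tns2, at 14.7 to 16.4 CPM per kb, overlapped with Tns3, at 13.5 to 15.0. With the longest transcript as length, Tns2, at 21.98 to 23.1 CPM per kb, overlapped with Tns3, at 20.9 to 22.6, in sgNDUFS4 libraries, and Tns2, at 16.8 to 18.8, lay below Tns3, at 20.2 to 22.4, in sgControl libraries. The order of Tns2 and Tns3 thus depends on the length used in sgControl, and their separation in sgNDUFS4 does too. Tns1 and Enah came next in sgControl, below all 4.

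**Figure D3:**
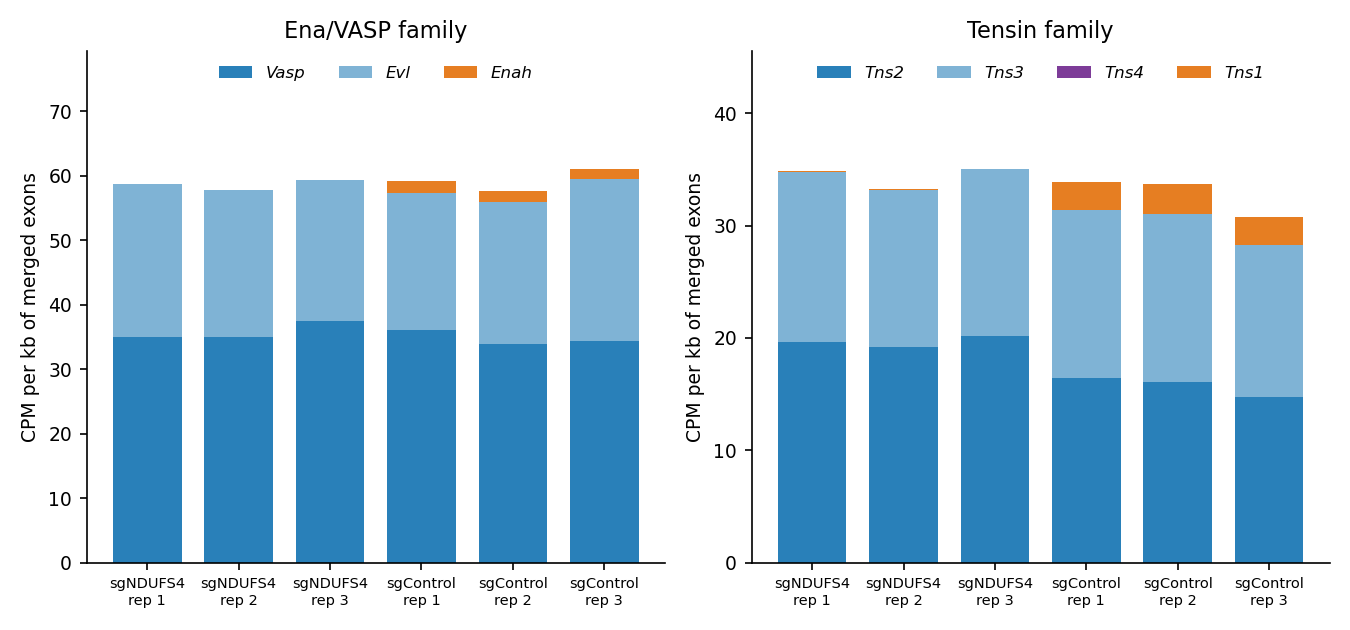
Stacked levels in CPM per kb of merged exons (vertical axes from 0) in each sgNDUFS4 and sgControl library for the Ena/VASP family (left) and the tensins (right), with Enah and Tns1 on top in orange. On this length, Enah adds between 2.45% and 3.00% and Tns1 between 7.19% and 8.11% of its family's sum in sgControl libraries (3.69% to 4.54% for Enah with the longest transcript); in sgNDUFS4 libraries neither is visible.

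Nearness of level was taken as the root mean square difference of log2(CPM + 0.5) over 6 libraries together, not in each library. By this measure the genes nearest to Enah were Xlr3c (0.70), Zdhhc15 (0.77) and Tns1 (0.87). Xlr3c was at 20.2, 22.9 and 20.1 CPM in sgControl libraries, below Enah. Enah and Tns1 were both picked for a large fall, so their nearness follows in part from that choice. The genes nearest to Tns1 were the quinone oxidoreductase gene Nqo1 (0.66), Xlr3c (0.79) and the secreted phospholipase gene Pla2g2e (0.80). The Xlr3c copies are near-identical, so its count is uncertain. Both Xlr3c and Zdhhc15 lie on chromosome X, where the tested genes nearest to Was and to Stard8 had median log2 fold changes of -0.75 and -0.85. The genes around Xlr3c and Zdhhc15 themselves were not examined. Zdhhc15 was at 0 CPM in all sgNDUFS4 libraries, against 15.7, 15.9 and 17.8 CPM in sgControl libraries.

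Of 18 genes listed as partners or regulators of Ena/VASP proteins, 17 were tested, of which 4 rose, 3 fell and 10 missed the threshold. These calls are 23.5% higher and 17.6% lower, beside 31.8% and 20.3% over all genes tested, so with CPM as deposited neither share was above the background. Under TMM scaling, with edgeR and with DESeq2, 5 of the genes were called lower. Over all 11063 genes tested these settings called 2852, 2860 and 2767 lower, against 2241 with CPM as deposited. In these 3 settings the list's share called lower was thus slightly above that over all genes tested. The list's median log2 fold change was 0.05, beside 0.06 over all genes tested. Tes, which encodes testin, a LIM protein that binds the EVH1 domain of Mena, rose to 90.9, 92.8 and 86.9 CPM in sgNDUFS4 libraries, against 49.7, 49.9 and 55.3 CPM in sgControl libraries, without overlap (log2 fold change 0.80, limma adjusted p = 6.3e-12). Fyb, the haematopoietic adaptor ADAP, which docks on EVH1 domains, fell to 7.43 ± 0.533 CPM in sgNDUFS4, against 32.4 ± 2.03 CPM in sgControl (SD, n = 3 each, limma adjusted p = 7.6e-15). Prkg2, a cyclic GMP-dependent kinase, fell to 2.89 ± 0.576 CPM in sgNDUFS4, against 8.27 ± 1.67 CPM in sgControl (SD, n = 3 each, limma adjusted p = 6.6e-07). The other rises were those of Raph1, which encodes lamellipodin, Vcl, which encodes vinculin, and Palld, which encodes palladin, with log2 fold changes of 0.63, 0.46 and 0.63. Zyx, which encodes zyxin, an anchor of Ena/VASP proteins at focal adhesions, was at 313.4 CPM in sgNDUFS4 and 315.6 CPM in sgControl (limma adjusted p = 0.82).

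Of 8 genes of other proteins with an EVH1 or related WH1 domain, 7 were tested. Homer3, a scaffold protein, rose to 59.0 ± 1.76 CPM in sgNDUFS4, against 36.3 ± 2.37 CPM in sgControl (SD, n = 3 each, log2 fold change 0.69, limma adjusted p = 1.4e-09). Was, which encodes the haematopoietic activator of the Arp2/3 complex, fell by 0.68 on the log2 scale (limma adjusted p = 0.024), in a stretch of chromosome X where the nearest 45 tested genes had a median of -0.75, and the other 5 did not pass. The call of Was was lost without sgNDUFS4 replicate 1, without sgNDUFS4 replicate 2 and without sgControl replicate 2, where the count of genes called lower was 0. The list's calls are 14.3% higher and 14.3% lower, beside 31.8% and 20.3% over all genes tested, so with CPM as deposited neither share was above the background. Under TMM scaling, edgeR, DESeq2 and the replicate block 2 of the 7 were called lower, a share above that over all genes tested in the same settings. Its median was 0.11, beside 0.06 over all genes tested.

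Of 39 genes of other actin assembly machinery, formins, the Arp2/3 complex and its activators, capping protein and cofilins, 34 were tested, of which 10 rose, 14 fell and 10 missed the threshold, at a median of -0.06. The calls are 29.4% higher, close to the 31.8% over all genes tested, and 41.2% lower, beside 20.3%. Cyfip2, a subunit of the WAVE regulatory complex, fell to 78.5 ± 3.54 CPM in sgNDUFS4, against 158.1 ± 8.10 CPM in sgControl (SD, n = 3 each, log2 fold change -1.01, limma adjusted p = 3.4e-15). Capza1, a subunit of capping protein, which competes with Ena/VASP proteins at filament ends, rose to 133.7 ± 6.72 CPM in sgNDUFS4, against 96.3 ± 9.04 CPM in sgControl (SD, n = 3 each, log2 fold change 0.47, limma adjusted p = 7.1e-08), and its 50 nearest tested genes had a median of 0.32. Arpc5l, an Arp2/3 subunit, fell by 0.44 on the log2 scale (limma adjusted p = 4.1e-05). Among the listed formins, Diaph1, Daam2, Fhod1 and Fmnl2 rose by 0.41, 0.40, 0.36 and 0.29 on that scale. Daam1, Diaph3 and Fmn1 fell by 0.35, 0.31 and 0.27, and Diaph2, Fmnl3 and Inf2 did not pass.

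Among 21 genes of integrin adhesions that tensins attach to, 20 were tested, of which 3 rose, 10 fell and 7 missed the threshold, at a median of -0.08. The calls are 15% higher and 50% lower, beside 31.8% and 20.3% over all genes tested. Lims2, an adaptor of integrin-linked kinase, fell to 2.73 ± 0.380 CPM in sgNDUFS4, against 6.19 ± 0.915 CPM in sgControl (SD, n = 3 each, limma adjusted p = 3.2e-05). Itga5, a fibronectin receptor subunit, fell to 27.0 ± 2.12 CPM in sgNDUFS4, against 42.2 ± 4.50 CPM in sgControl (SD, n = 3 each, limma adjusted p = 4.5e-07). Stard8, which encodes a relative of the tensin partner DLC1, fell by 0.99 on the log2 scale (limma adjusted p = 5.2e-14), on chromosome X, where its 50 nearest tested genes had a median of -0.85. Dlc1 itself was at 92.7 CPM in sgNDUFS4 and 87.1 CPM in sgControl (limma adjusted p = 0.14). Without the mean-variance trend 6 of the 20 were called lower. Over all 11063 genes tested 1880 were called lower without it, against 2241 with it.

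**Figure D4:**
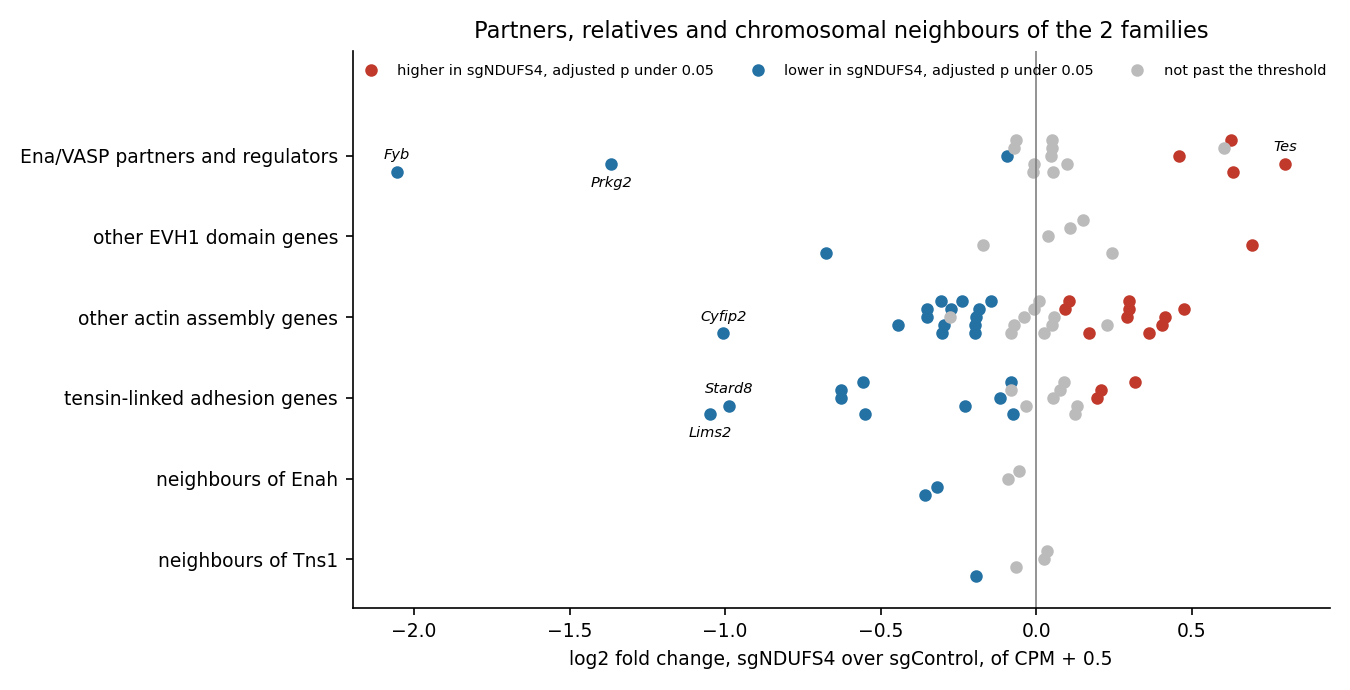
Log2 fold change of CPM + 0.5 in sgNDUFS4 over sgControl (horizontal axis) for every tested gene of the 4 lists and for the 2 nearest tested genes on each side of Enah and Tns1; red and blue points passed an adjusted p of 0.05 as higher and lower, grey points did not. Each of the 4 lists holds genes on both sides of 0, and the neighbours lie between -0.36 and 0.03.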

How the data were processed

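RNA-seq of B16-BL6 cells was deposited as 1 table of CPM values. The submitters' processing notes name HISAT2 and GRCm38. Which counter, annotation and filters were used is not given in the sources used here. Deposited CPM sums to 1000000 in every library. Values above 0 were whole multiples of 1 step per library for at least 99.99% of values (tolerance 0.01), which gave the read numbers and floors.

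The test was limma 3.58.1 (R 4.3.3) applied to log2(CPM + 0.5), two-sided and with a trend of variance on level. It covered 11063 genes averaging 1 CPM or more across 6 libraries, Benjamini-Hochberg adjusted over all of them at 0.05; the pseudocount understates changes of low genes. Positions and exon lengths came from GENCODE M21, promoter windows from RefSeq. On simulated libraries of 11007 tested genes limma recovered 53.1%, 94%, 98% and 100% of genes changed 1.25-, 1.5-, 2- and 4-fold, with 12 false calls. Only 200 genes were changed there, and all genes had a common spread taken from sgControl, whereas 52.0% of real genes were called. These recovery rates therefore do not give the power of the real fit. Alternatives were other pseudocounts, filters, scaling and variance models, edgeR 4.0.16 and DESeq2 1.42.0 on recovered reads, a replicate block and each library left out. On the recovered reads edgeR called 5583 genes. Named genes were the members, up to 3 called genes per list with the largest change and at least 5 CPM in the higher group, the 3 genes nearest in level to Enah and to Tns1, their 2 nearest tested genes on each side, and Ndufs4; other genes were chosen after their values were seen. The members and lists were chosen with earlier results of these data known.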

Additional observations from a re-analysis of the deposited data

How the results depend on the processing

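Tns2 stayed higher and past the threshold in all 15 alternatives, and Vasp, Evl and Tns3 passed it in none of the 15. Under TMM scaling, edgeR and DESeq2 in turn, Vasp was at -0.018, -0.018 and -0.018, Evl at -0.058, -0.063 and -0.063, Tns3 at -0.042, -0.044 and -0.044, Smarcal1 at -0.025, -0.028 and -0.028 and Arpc2 at -0.034, -0.035 and -0.036 on the log2 scale, on the other side of 0 from CPM as deposited. TMM moved the median of all genes by -0.058. With a library left out, Evl lay between -0.045 and 0.073, Tns3 between -0.032 and 0.049 and Smarcal1 between -0.015 and 0.072. Genes called lower among Ena/VASP partners were 5 under TMM scaling, 5 with edgeR and 5 with DESeq2, against 3. Among other EVH1 genes they were 2 under TMM scaling, edgeR, DESeq2 and the replicate block, 0 with a filter of 5 CPM, and 0 to 1 with a library left out, against 1. Among tensin-linked adhesion genes they were 6 without the trend, against 10. Over all genes tested, those called lower were 2852 under TMM scaling, 2860 with edgeR and 2767 with DESeq2, against 2241. They were 2309 with the replicate block, 2059 of 9655 with a filter of 5 CPM, 1880 without the trend and 1959 to 2193 with a library left out. Under TMM scaling, added after the data were seen, the Ena/VASP sum per kb was 94.9% of sgControl, against 98.9%, and Vasp with Evl 97.6%, against 101.7%. The cause of these shifts was not tested. Same-numbered libraries had correlations of deviations from group means of 0.056, 0.012 and 0.097, against -0.087 to 0.035 for libraries of different number. No clear pairing by number was seen, and 3 libraries per group cannot exclude it. The replicate block called 5941 genes, against 5755. Fits that left out a library leave 2 in a group, and pool the spread over both. Depth limits Tns4 and, in sgNDUFS4, Enah and Tns1.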
